A study of Mus musculus with 2 samples.

Results

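The cytoplasmic ribosomal protein genes were taken as the genes listed in both single-cell RNA libraries whose symbol starts with Rpl or Rps and a digit, together with *Rpsa*, *Rplp0*, *Rplp1* and *Rplp2*. *Rps6k* kinase genes and symbols with -ps, which mark processed copies, were left out. This rule gave 85 members of 6001 genes listed in both libraries, 50 named for the large subunit and 35 for the small subunit. Of the members, 8 are paralogs or associated genes rather than standard subunits (*Rpl22l1*, *Rps27l*, *Rps27rt*, *Rpl36al*, *Rpl39l*, *Rpl7l1*, *Rps4l* and *Rps19bp1*). The rule used symbols and no measured value.

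The libraries held bone marrow cells (BMCs) from the hindlimbs and forelimbs of C57BL6/J mice at postnatal day 21, after lysis of red blood cells. The WT library came from 1 mouse with floxed S1P alleles and no Cre, and the Cko library from 1 mouse in which S1P (site-1 protease, encoded by *Mbtps1*) was deleted by Osx-Cre, a transgene driven by the promoter of osterix, a transcription factor of the osteoblast lineage. The study treats this transgene as active in blood cells too, neutrophils included. In which of the BMCs described here S1P was deleted was not measured. With 1 library per genotype there was no replicate and no test was made, so each interval given covers counting error only and each Cko/WT difference is a difference between these libraries.

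Each ribosome is built from 1 copy of most ribosomal proteins and from ribosomal RNA, so that these genes are expressed together and at high levels in growing cells. Their mRNAs begin with a run of pyrimidines, the 5′ TOP motif, through which mTOR signalling sets their translation. In bone marrow, ribosome production is high in dividing progenitors and falls as neutrophils and erythroid cells finish their maturation, and red cell precursors are the cells most affected by inherited shortages of ribosomal proteins.

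The WT library held 56318434 unique molecular identifiers (UMIs, 1 per captured RNA molecule) in 6271 cells kept, and the Cko library 34410445 UMIs in 3662 cells kept, with medians of 6977 and 7440 UMIs per cell. The libraries shared 28 cell barcodes. *Mbtps1* was at 31.9 CPM (UMIs scaled to counts-per-million) in the WT and 31.2 CPM in the Cko, which does not check the deletion, because 3′ reads lie outside the floxed exon. *Xist*, the X-inactivation RNA, was listed only in the Cko (28053 UMIs), and the Y-linked genes *Ddx3y* (1326 UMIs) and *Eif2s3y* (2298 UMIs) only in the WT, so genotype and sex cannot be told apart. Both libraries were clustered together without the member genes into 26 clusters, which were named after cell type markers. The erythroid-like class held 3386 WT and 542 Cko cells, the neutrophil-like class 866 and 1270, the B cell-like class 768 and 540, the granulocyte-monocyte progenitor (GMP)-like class 495 and 430, and the monocyte-like class 308 and 527. The dendritic cell-like class held 64 WT and 78 Cko cells, and cluster 15, which was led by *Pf4* and took no name, 143 and 113. These 7 classes had at least 50 cells in each library.

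The letters that make the members alike and different were read first. *Rps27* (chr3:90212522-90213651, minus strand, GRCm38), *Rps27rt* (chr9:114982366-114982739, minus strand) and *Rps27l* (chr9:66946086-66949516, plus strand) encode near-identical small subunit proteins, and each has a coding sequence of 252 bases. The first 60 coding bases after the start codon, from GENCODE transcripts, are printed here because they show why *Rps27* and *Rps27rt* cannot be separated by coding letters while *Rps27l* can. Capitals mark the bases of *Rps27l* that differ from *Rps27*.
Rps27: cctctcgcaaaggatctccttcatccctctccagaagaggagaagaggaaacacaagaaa
Rps27rt: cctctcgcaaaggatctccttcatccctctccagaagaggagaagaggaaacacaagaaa
Rps27l: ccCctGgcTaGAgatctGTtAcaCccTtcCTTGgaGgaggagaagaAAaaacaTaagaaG
*Rps27l* differed at 19 of these 60 bases, and *Rps27rt* at none of its 252. Over the aligned coding bases the identity was 100% for *Rps27* and *Rps27rt*, 77.3% for *Rps27* and *Rps27l*, 87.7% for *Rpl36a* and *Rpl36al*, 85.0% for *Rpl39* and *Rpl39l*, 74.6% for *Rpl22* and *Rpl22l1*, and 66.8% for *Rpl7* and *Rpl7l1*. The values of *Rps27* and *Rps27rt* are therefore uncertain as a split of shared reads.

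Promoter windows of RefSeq (GRCm38.p6) were found for 64 of the 85 members. A run of at least 7 C or T that begins with C was sought on the strand of the gene. It had to begin within 20 bases before to 10 bases after the annotated start. A gene was counted if any of its promoter windows held the run. The run was present in 25 of 64 members (39.1%) and in 14.7% of all 27025 genes with windows of the same length. The 30 bases around 6 annotated starts follow, with the run in capitals, to show how the pyrimidine run sits in members that have it and that some members lack it at this start.
Rps18 (chr17:33955651-33955680, minus strand): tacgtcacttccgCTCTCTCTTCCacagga
Rps27 (chr3:90213634-90213663, minus strand): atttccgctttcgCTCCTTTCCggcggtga
Rpl27a (chr7:109519180-109519209, plus strand): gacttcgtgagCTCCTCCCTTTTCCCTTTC
Rps6 (chr4:86857353-86857382, minus strand): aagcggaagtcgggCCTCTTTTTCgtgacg
Rplp0 (chr5:115559452-115559481, plus strand): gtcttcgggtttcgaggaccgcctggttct
Rps27rt (chr9:114982725-114982754, minus strand): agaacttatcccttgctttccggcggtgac
CTTCCG, the core letters bound by ETS and GABP factors, was counted in the same way in windows of 300 bases. It was present on either strand in 44 of 64 members (68.8%) and in 18.8% of all genes. AAGATGGC, the core of the YY1 motif, was present in 9.38% of the members and 3.19% of all genes. The shares were closer in ratio for TATAAA (10.9% and 15.7%), CACGTG (9.38% and 8.09%) and CCAAT (31.3% and 41.1%). These matches describe letters in the windows only.

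Ribosomal protein mRNAs made up 26.0% of all UMIs in the WT and 26.7% in the Cko. Here and below, all UMIs are those of the genes listed in a library, 7181 in the WT and 6735 in the Cko. UMIs of unlisted genes are not in these totals. Globin was 16.7% of the WT and 6.28% of the Cko UMIs, and without it the order turned, at 31.2% in the WT and 28.5% in the Cko. In both libraries together, 66 of the 100 genes with the most UMIs were members. *Rpl41*, which encodes the shortest ribosomal protein, had the most UMIs (437336 WT and 259522 Cko), followed by *Rpl32*, *Rps23*, *Rps18* and *Rps19*. The fewest were counted for *Rpl39l* (46 and 63), *Rps4l* (814 and 433), *Rps19bp1* (2906 and 1523), *Rpl7l1* (3771 and 2466) and *Rpl27a* (40840 and 21686). Thus 4 of the 5 members with the fewest UMIs are paralogs or associated genes, and *Rpl27a* is the standard subunit with the fewest.

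The share of UMIs from ribosomal protein genes separated the cell classes widely. In the WT it was 36.3% (95% exact binomial interval 36.2 to 36.3) in B cell-like cells, 35.1% in cluster 15, 31.9% in GMP-like cells, 30.6% in dendritic cell-like cells, 26.0% in erythroid-like cells, 24.2% in monocyte-like cells and 10.8% (10.8 to 10.8) in neutrophil-like cells. The share in B cell-like cells was 3.35 times that in neutrophil-like cells in the WT and 4.42 times in the Cko. By the median over WT cells, cluster 15 (41.5%) lay above B cell-like cells (35.9%). Lymphoid cells and early progenitors stood at the top of the order, and granule-filled neutrophils at the bottom. Globin and granule mRNAs enter the denominator: without globin, granule and S100 genes the neutrophil-like share was 20.1% in the WT and 17.5% in the Cko, against 36.7% and 40.6% in B cell-like cells. Without globin the erythroid-like share was 35.2% in the WT and 38.2% in the Cko.

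The smaller classes followed the same scale. T/NK-like cells (21 WT and 63 Cko) were at 31.4% and 40.3%, basophil and eosinophil-like cells (20 and 23) at 32.1% and 34.96%, stromal-like cells (37 and 21) at 23.2% and 27.0%, and macrophage-like cells (58 and 9) at 17.4% and 23.1%. Globin made up 26.0% of the UMIs of the WT macrophage-like cells and 9.32% of the Cko ones. Cluster 17, led by immunoglobulin light chain genes, took no name. Its share was 14.5% in the WT and 31.5% in the Cko, beside a globin share of 40.2% and 15.9%, and the part of globin RNA in this difference was not tested. Without globin it was 24.2% and 37.5%.

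**Figure D1:**
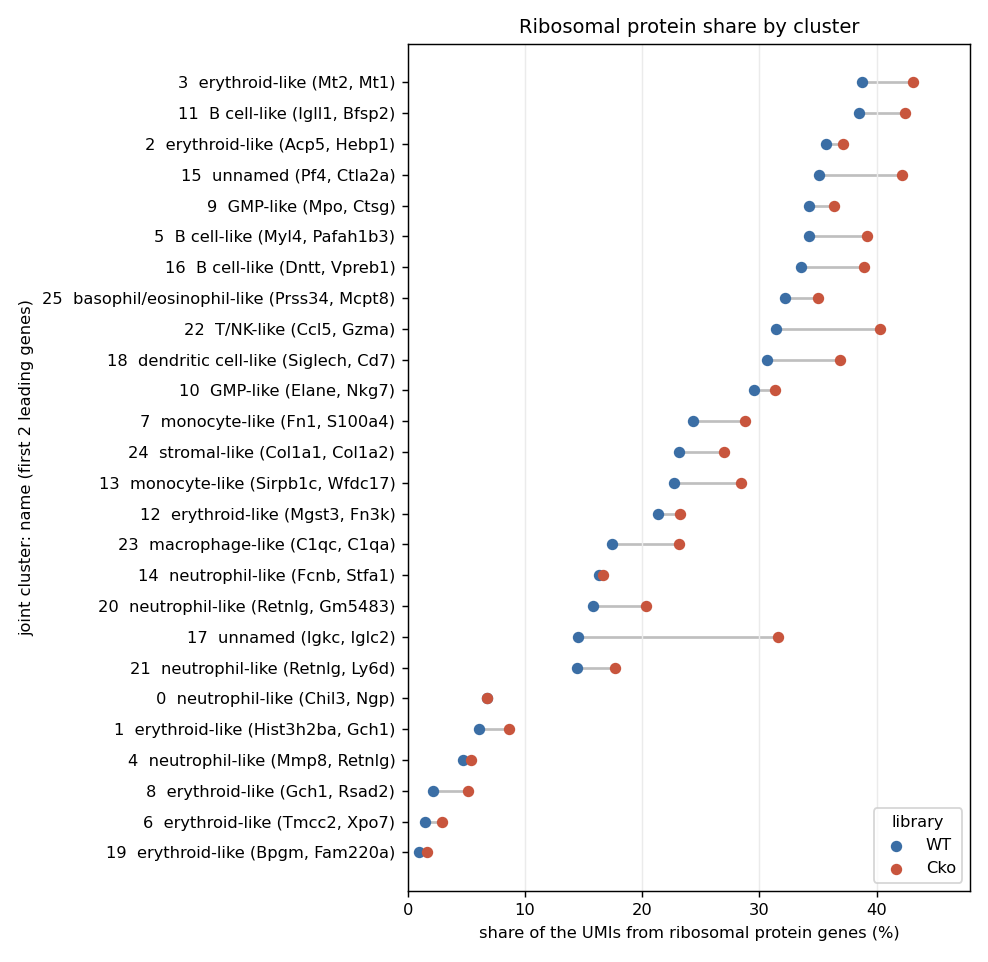
Share of the UMIs that came from the 85 ribosomal protein genes (x axis, %) in each of the 26 joint clusters (y axis, with the leading genes), as 1 point per library (WT blue, Cko red) joined by a grey line. The WT points run from 38.8% in erythroid-like cluster 3 to 0.936% in erythroid-like cluster 19, and the Cko point lies to the right of the WT point in all 26 clusters, by least in neutrophil-like cluster 0.

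The granulocytic clusters showed the share at successive stages of neutrophil formation. GMP-like cluster 9 (*Mpo*, *Ctsg*) had a share of 34.3% (WT) and 36.3% (Cko), and GMP-like cluster 10, led by the primary granule protease gene *Elane*, had 29.5% and 31.3%. Neutrophil-like cluster 14, led by the promyelocyte and myelocyte gene *Fcnb*, was at 16.3% and 16.7%. Cluster 0, led by the secondary granule genes *Ngp* and *Ltf*, was at 6.71% and 6.76%. Cluster 4, led by *Mmp8* and *Retnlg*, genes of the most mature cells, was at 4.74% and 5.40%. The share was thus lower at each step in both libraries, and member UMIs per cell went from 3494 in cluster 10 to 190.8 in cluster 4 of the WT and from 4330 to 254.0 in the Cko. The median UMIs of all genes per cell also differed between these clusters, at 11487.5 and 3741 in the WT.

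Neutrophil-like clusters 20 and 21 stood apart from this series. Cluster 20 (109 WT and 18 Cko cells) held neutrophil genes together with 26.8% and 23.3% globin UMIs, and cluster 21 (52 and 42 cells) held them together with the B cell genes *Ms4a1* and *Cd79b* and with *Cd74* and *Ly6d*, which B cells and dendritic cells share. By the marker lists used for naming, the 10 leading genes of cluster 21 held 3 neutrophil and 2 B cell markers, so its name is uncertain. Their member shares were 15.8% and 20.3% in cluster 20 and 14.5% and 17.6% in cluster 21. Both lay above clusters 0 and 4. The share, its maturation bins and the Cko/WT counts of members in neutrophil-like cells are given with and without clusters 20 and 21. Other values of the class, such as those of single genes and of other gene lists, include these clusters.

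A division of the neutrophil-like cells into 3 bins by mature against immature granule genes gave different orders in the libraries. The limits were log2 ratios of -9.21 and -7.50, so UMIs of the immature genes far outnumbered the mature ones at both. The counts were not scaled for depth. Median UMIs per cell were 7775, 6051 and 4593 in the WT bins and 9359, 7079 and 4418 in the Cko bins. The bins thus also differed in depth. From the least to the most mature bin the share was 10.3%, 11.04% and 11.8% in the WT and 10.3%, 9.23% and 7.58% in the Cko. Without clusters 20 and 21 the bin limits were set anew from the cells left. The share was then lower in each later bin of both libraries, at 9.82%, 9.22% and 8.15% in the WT and 10.1%, 9.10% and 5.83% in the Cko. The WT direction thus did not hold without these clusters. The most mature WT bin held 19.0% globin UMIs. The median over cells was lowest in the most mature bin of both libraries with all cells kept, at 6.996% and 4.99% in the least and the most mature bin of the WT and 7.16% and 5.17% in the Cko. Of 2136 cells, 802 lay within 0.5 of a bin limit on the log2 scale.

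Among single members, none of 82 with at least 100 UMIs was higher and none was lower by at least 2-fold between the WT bins, where 7.85% and 6.25% of all genes were. In the Cko none was higher and 2 (*Rpl3* and *Rps19*) were lower by at least 2-fold, where 6.46% and 13.8% of all genes were. The median ratio of the most to the least mature bin was 1.15 (WT) and 0.73 (Cko), beside 0.93 and 0.87 over all genes. *Rps19*, the gene most often mutated in Diamond-Blackfan anaemia, was at 2330, 2421 and 2197 CPM in the WT bins and at 2410, 2003 and 1169 CPM in the Cko bins. *Rps9*, which binds ribosomal RNA early in small subunit assembly, was at 2162, 2234 and 2579 CPM in the Cko bins. In the most mature Cko bin *Rps19* was thus at its lowest and *Rps9* at its highest level of the 3 bins. The largest WT ratio was 1.65 (1.57 to 1.74) for *Rplp1*, a stalk protein gene, which was at 1262, 1446 and 2083 CPM.

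Erythroid-like cells went through the widest range. In cluster 3, the earliest by globin, the share was 38.8% in the WT and 43.1% in the Cko, with globin at 0.913% and 0.317%. It was 35.7% and 37.1% in cluster 2, 21.3% and 23.2% in cluster 12, 6.04% and 8.62% in cluster 1, 2.12% and 5.14% in cluster 8, 1.49% and 2.87% in cluster 6, and 0.936% and 1.64% in cluster 19, where globin made up 90.5% and 87.9%. Among the UMIs that are not globin the share in clusters 3, 2, 12 and 1 was 39.1%, 39.0%, 31.3% and 14.8% in the WT and 43.3%, 42.1%, 35.2% and 19.8% in the Cko. The order did not hold in the clusters richest in globin, as clusters 8, 6 and 19 were at 7.14%, 8.12% and 9.83% in the WT and at 15.1%, 13.4% and 13.6% in the Cko. In quartiles of the globin share, divided at 4.55%, 45.9% and 70.0%, the members made up 39.4%, 36.3%, 12.6% and 7.13% of the non-globin UMIs in the WT and 43.3%, 39.0%, 19.2% and 11.8% in the Cko. The step between the second and the third quartile was the widest in both libraries, and 586 of 3928 cells lay within 2 percentage points of a limit.

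**Figure D2:**
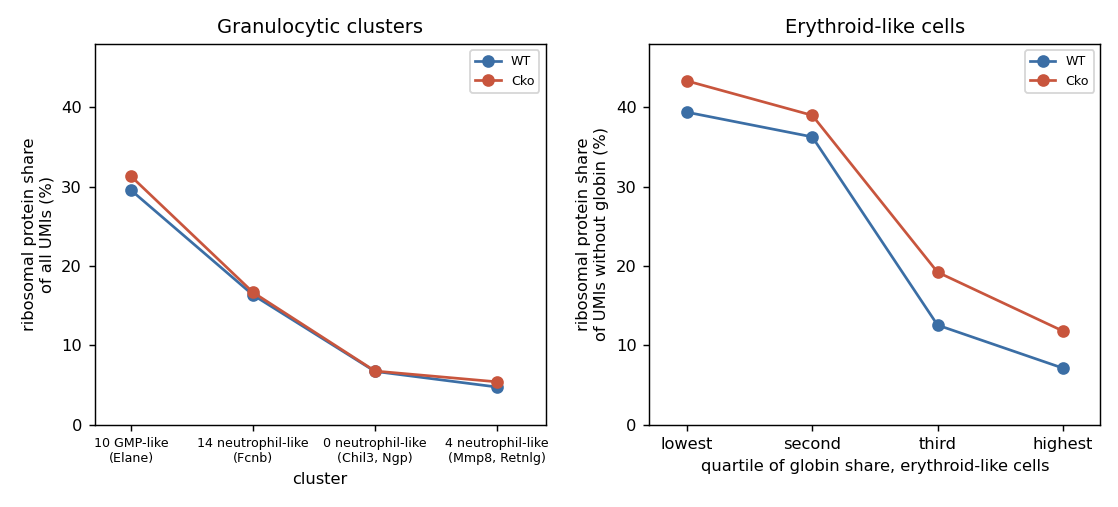
Ribosomal protein share by stage in the WT (blue) and the Cko (red). On the left the share of all UMIs (%) in 4 granulocytic clusters drops from 29.5% and 31.3% to 4.74% and 5.40%, with the libraries nearly on top of each other. On the right the share of UMIs without globin (%) in quartiles of the globin share of erythroid-like cells drops from 39.4% and 43.3% to 7.13% and 11.8%, with the Cko above the WT at each point.

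Nearly every member took part in the erythroid drop. With globin UMIs left out of the total, 84 of 84 members with enough UMIs were lower by at least 2-fold in the highest than in the lowest globin quartile of the WT, where 51.2% of all genes were lower and 17% higher. In the Cko 81 of 83 were lower, where 54.6% of all genes were lower and 17.2% higher, and no member was higher in either library. The median ratio was 0.16 in the WT and 0.24 in the Cko, beside 0.47 and 0.43 over all genes.

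Members did not drop by the same factor. *Rps18*, of the small subunit head, went from 8959 CPM (scaled without globin UMIs) in the lowest to 688 in the highest quartile of the WT, a ratio of 0.08 (0.07 to 0.08), and from 9851 to 862 in the Cko. *Rpl12*, a stalk-base protein gene, went from 3116 to 264 CPM in the WT (ratio 0.08). By contrast *Rps29*, another head protein gene, went from 7033 to 2896 CPM (ratio 0.41, 0.40 to 0.43) and *Rpl41* from 12031 to 3968 CPM (ratio 0.33). As a share of member UMIs, *Rps29* went from 179 to 406 per 10000 in the WT and from 164 to 316 in the Cko, while *Rps18* went from 227 to 96.5 and from 227 to 73.0. The mRNA makeup of the ribosomal protein set thus shifted toward *Rps29* and *Rpl41* in the most hemoglobin-rich cells of both libraries.

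The ratio of large to small subunit UMIs moved little. It was lowest in neutrophil-like cells (1.15 WT and 1.16 Cko) and highest among the main classes in erythroid-like cells (1.28 and 1.29). In B cell-like cells it was 1.22 and 1.24, and in monocyte-like cells 1.18 and 1.21. Within the neutrophil-like class it was 1.14 and 1.17 in cluster 14 and 1.09 and 1.12 in cluster 4. Along the globin quartiles it was 1.29, 1.252, 1.27 and 1.43 in the WT and 1.31, 1.26, 1.19 and 1.31 in the Cko, with the highest value in the most hemoglobin-rich WT cells.

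The pattern of most single members across classes was close to flat once the summed level was divided out. Over the 81 members with at least 100 WT UMIs in each of the 7 classes, the share of member UMIs in the highest class was a median of 1.28 times that in the lowest. None of the 81 reached 2-fold and 68 stayed under 1.5-fold. Outside the 81, *Rps4l* had a range of 6.60-fold in the WT and 5.43-fold in the Cko, highest in neutrophil-like and lowest in erythroid-like cells. *Rpl7l1* had 2.23-fold and 3.22-fold. Both had few UMIs, with class minimums of 15 and 26 in the WT. *Rps15a*, of the small subunit, was the flattest at 1.06-fold, and *Rpl18*, *Rpl23*, *Rpl37* and *Rps7* followed it. The highest class was the same in both libraries for 60 of the 81 members and the lowest for 48.

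The widest ranges among the 81 members fell into a few patterns. *Rps2*, an entry-channel protein gene, was high in erythroid-like cells, at 168 per 10000 member UMIs in the WT against 87.4 in dendritic cell-like cells (1.92-fold), and at 124 against 67.0 in the Cko. *Rplp1* was also highest in erythroid-like cells (240) and lowest in neutrophil-like cells (137), as was *Rpl12* (74.6 and 45.4). Both *Rplp1* and *Rpl12* belong to the stalk that recruits translation factors. *Rps27l*, a target of p53, was at 44.7 in erythroid-like and 25.5 in dendritic cell-like cells.

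Neutrophil-like cells were highest for *Rpl9* (153, against 90.2 in monocyte-like cells), *Rps9* (198, against 119 in erythroid-like cells) and *Rps27a*, which encodes a ubiquitin fusion (247, against 158 in B cell-like cells). In the Cko *Rps9* was at 252 in neutrophil-like and 122 in erythroid-like cells, in the same order as in the WT. Dendritic cell-like cells were highest for *Rpl31* (149, against 86.1 in monocyte-like cells) and *Rps27rt* (50.2, against 31.6 in erythroid-like cells), but the WT dendritic cell-like class held 64 cells only.

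**Figure D3:**
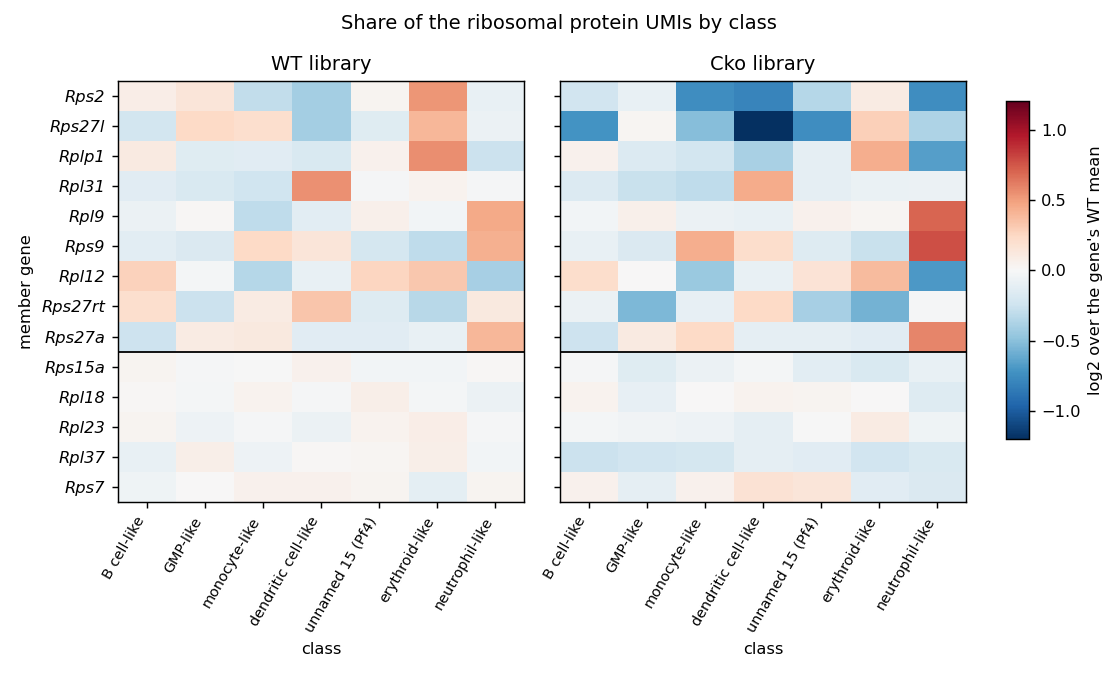
Share of the ribosomal protein UMIs taken by each of 14 members (rows) in 7 classes (columns), as the log2 of the share over the gene's mean share in the WT (colour scale), for the WT (left) and the Cko (right). The 9 upper rows are from the members with the widest range over the WT classes and the 5 lower rows the flattest. Both were chosen among members with at least 100 UMIs in each WT class. *Rps2* and *Rplp1* are red in the erythroid-like column and *Rpl9*, *Rps9* and *Rps27a* in the neutrophil-like column of both libraries.

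The Cko library had the higher ribosomal protein share in each of the 26 clusters, with the interval of the ratio above 1 in 26 of 26, and in 25 of 26 once globin was left out. This share is over summed UMIs, as are the ratios below. By the median over cells cluster 20 went the other way, at 7.49% in the WT and 7.14% in the Cko. In cluster 15 the medians over cells were 41.5% and 45.0%. The Cko/WT ratio of the share was 1.11 (1.11 to 1.12) in B cell-like, 1.08 in GMP-like, 1.18 in monocyte-like and 1.2 in dendritic cell-like cells, and 1.2 in cluster 15. It was 1.03 in erythroid-like cells (1.09 without globin), and within the erythroid-like clusters it ran from 1.04 in cluster 2 to 2.43 in cluster 8. Median UMIs per cell were higher in the Cko in 20 of the 26 clusters, and the part of depth in the higher share was not tested.

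Neutrophil-like cells as a class went the other way, at a ratio of 0.85 (0.84 to 0.85), although the ratio was 1.01 in cluster 0, 1.14 in cluster 4, 1.02 in cluster 14, 1.29 in cluster 20 and 1.22 in cluster 21. The largest part of the WT class was cluster 0 (396 of 866 cells) and that of the Cko class cluster 4 (547 of 1270), which had the lowest share. With each neutrophil-like cluster weighted equally the difference on the log2 scale was 0.20 and not -0.24. Without clusters 20 and 21 the class was at 9.40% in the WT and 8.49% in the Cko. Neutrophil-like class values of single genes and gene lists below also span this difference in cluster mix, and its part in them was not tested.

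Counts of members followed the class totals. A member was counted as higher or lower when the CPM of the libraries differed by a ratio of at least 5 to 4, called the fold limit here, with an interval on that side of 1. In B cell-like cells 7 of 84 members were higher and 2 lower in the Cko, where 4.53% of all genes were higher and 13.4% lower, and the median member ratio was 1.10 beside 0.93 over all genes. In GMP-like cells 5 of 84 were higher and 1 lower (all genes 6.16% and 10.4%), with medians of 1.08 and 0.97. In erythroid-like cells 3 of 84 were higher and 3 lower (all genes 11.3% and 23.9%), with medians of 1.02 and 0.91. In these 3 classes most members lay within the fold limit, and the higher median came from many small differences. In B cell-like cells 73 of 84 members had a ratio above 1. The signs were more mixed in GMP-like cells and most mixed in erythroid-like cells.

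More members passed the limit elsewhere. In monocyte-like cells 21 of 84 were higher and 3 lower (all genes 10.4% and 21.7%), with medians of 1.14 and 0.93. Over 8 alternatives the number of higher members in monocyte-like cells ran from 4 with a limit of 1.5-fold to 38 with ratios divided by the median of all genes. In dendritic cell-like cells 26 of 81 were higher and 1 lower (all genes 11% and 21.8%), and in cluster 15 20 of 83 were higher and 1 lower (all genes 7.74% and 20.9%), with member medians of 1.2 and 1.19. In neutrophil-like cells 1 of 84 was higher and 32 were lower (all genes 9.66% and 25.1%), with medians of 0.82 and 0.91. Without clusters 20 and 21, 2 of 84 members were higher and 18 lower in neutrophil-like cells (all genes 8.41% and 16.5%). Within cluster 0 alone 4 of 83 were higher and 3 lower (all genes 7.78% and 5.96%), and within cluster 14 3 of 82 were higher and 2 lower (6.36% and 9.32%). Cluster 4 went against the class, with 17 of 82 members higher and 3 lower (12% and 5.3%). The WT monocyte-like cells came mostly from cluster 7 (271 of 308), while the Cko ones came from clusters 7 (266) and 13 (261). Within cluster 7 alone 24 of 83 members were higher and 2 lower (all genes 7.11% and 12.9%).

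The members did not all share the common shift. Over the 16 clusters with at least 50 cells in each library, 81 members had a ratio in every cluster, and 27 of them were above 1 in all 16. *Rps3a1*, a solvent-side small subunit gene also bound by initiation factor eIF3, and *Rpl24*, which forms a bridge between the subunits, passed the fold limit upward in all 16. The median ratio over clusters was 2.11 (range 1.86 to 3.4) for *Rps3a1* and 1.5 (1.32 to 2.74) for *Rpl24*. *Rplp0*, the scaffold of the stalk, passed it in 14 of 16, with a median of 1.43.

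By class, *Rps3a1* in B cell-like cells was at 2673 CPM in the WT and 5464 CPM in the Cko (ratio 2.04, 2.003 to 2.09). In erythroid-like cells it was at 1595 and 3228 CPM (2.02) and in neutrophil-like cells at 723 and 1142 CPM (1.58). *Rps3a1* was thus the member with the highest ratio in all 7 classes, also in neutrophil-like cells, where the summed members were lower. *Rpl24* was at 1647 and 2399 CPM in B cell-like cells (1.46) and at 569 and 692 CPM in neutrophil-like cells (1.22). *Rplp0* was at 4825 and 6652 CPM in B cell-like cells (1.38), but at 1377 and 1377 CPM in neutrophil-like cells (1.0, 0.97 to 1.03).

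At the other end, *Rps2* was the only member below 1 in all 16 clusters (median 0.89, range 0.69 to 0.99). It was at 4364 and 3340 CPM in erythroid-like cells (ratio 0.77) and at 1178 and 633 CPM in neutrophil-like cells (0.54). *Rps21* had a median of 0.86, with 2104 and 1521 CPM in erythroid-like cells (0.72) and 1740 and 1911 CPM in dendritic cell-like cells (1.10, 0.99 to 1.22). These values lay below the members' common ratio, whose median over the members' own medians was 1.12.

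The paralogs moved apart from their partners in several classes. In B cell-like cells *Rps27* had the higher level in the Cko (3454 and 4386 CPM, 1.27), whereas *Rps27l* was lower (1054 and 834 CPM, 0.79). In dendritic cell-like cells the ratios were 1.44 for *Rps27* and 0.70 for *Rps27l*, and in monocyte-like cells 1.41 and 0.72. *Rps27l* was nearer to 1 in erythroid-like (0.95) and GMP-like cells (0.93). *Rps27rt*, whose coding letters equal those of *Rps27*, had ratios of 0.92 in B cell-like and 1.13 in dendritic cell-like cells. *Rpl22l1*, which can stand in for *Rpl22* and acts in splicing, was at 1013 and 647 CPM in erythroid-like cells (0.64, 0.62 to 0.66) and at 1422 and 1590 CPM in B cell-like cells (1.12, 1.08 to 1.15), while the ratio of *Rpl22* was 1.0 and 1.06. *Rps4l* had a ratio of 0.59 in B cell-like and 0.51 in neutrophil-like cells, from 22.3 and 21.2 CPM in the WT. *Rpl36al* stayed between 0.74 in neutrophil-like and 1.14 in dendritic cell-like cells, and *Rpl7l1* between 0.78 in monocyte-like and 1.01 in B cell-like cells. *Rps19bp1*, whose product binds Rps19, had a ratio of 0.63 in monocyte-like and 1.01 in erythroid-like cells. *Rpl39l* had too few UMIs for a ratio.

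**Figure D4:**
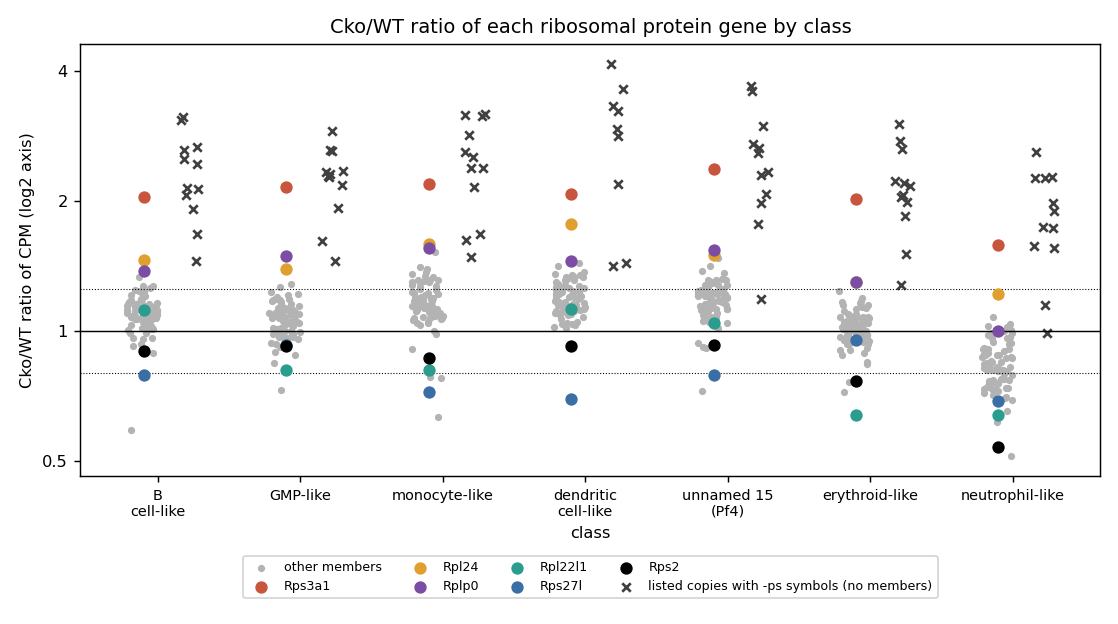
Cko/WT ratio of CPM (y axis, log2 scale) of each ribosomal protein gene in 7 classes (x axis). Grey points are members, coloured points the 6 members named in the key, and crosses the listed copies with -ps symbols, which are no members; dotted lines mark the fold limit in each direction. *Rps3a1* lies at 1.58 to 2.36 and above the other members in every class, the crosses lie mostly higher still, and most grey points lie under 1 only in neutrophil-like cells.

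Processed copies bear on how reads of these genes are assigned. Of 84 members with a protein-coding transcript, 48 had at least 1 other transcript of GENCODE with a near-identical 3′ end (at least 98% identity over at least 90 of the last 300 bases) and 36 had none. *Rps2* had the most such copies (24), *Rps3a1* had 5, *Rpl24* 4 and *Rplp0* 0. The median Cko/WT ratio was 1.08 for members with no copy and 1.12 for those with a copy in B cell-like cells, 1.01 and 1.04 in erythroid-like cells, and 0.81 and 0.84 in neutrophil-like cells.

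The 12 listed genes with -ps symbols lay high among the members. Of their 81 ratios over the 7 classes, 80 were above the median member of the class and 55 above every member. Their medians over classes ran from 1.37 for *Rpl36-ps3* to 3.12 for *Rps18-ps3*, and each was above 1 in every class where it had enough UMIs, except *Rpl36-ps3*, which was above 1 in 5 of 6. *Rps18-ps3* in B cell-like cells was at 90.3 CPM in the WT and 282 CPM in the Cko (3.12, 2.82 to 3.47), while *Rps18* itself was at 7065 and 8242 CPM (1.17). *Rps10-ps1* was at 64.7 and 199 CPM in the same cells (3.07). Whether both libraries were counted with the same annotation and settings is not given in the sources used here, and the part of read assignment in the *Rps3a1*, *Rpl24* and copy ratios was not tested.

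*Fau* and *Gnb2l1* also encode ribosomal proteins and lie outside the symbol rule. Of the 3 genes of their list with enough UMIs, 0 were higher and 1 lower in B cell-like cells (all genes 4.53% and 13.4%). In dendritic cell-like cells 1 was higher and 1 lower (11% and 21.8%). The gene that was lower is not among these named ones, and its log2 ratios were -0.64 and -0.69. *Fau*, which encodes a ubiquitin-like fusion with eS30, had ratios from 1.15 in erythroid-like to 1.49 in dendritic cell-like cells. *Gnb2l1*, which encodes the scaffold protein Rack1 of the small subunit, was near 1 outside neutrophil-like cells (1.03 in B cell-like, 0.71 in neutrophil-like cells).

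Genes that serve the ribosome were compared as whole lists. In the list of 18 elongation factor and TOP mRNA genes, 2 were higher and 1 lower in B cell-like cells (all genes 4.53% and 13.4%), with a median ratio of 1.07. In monocyte-like cells 6 of 18 were higher and none lower (10.4% and 21.7%), with a median of 1.16. In neutrophil-like cells 1 was higher and 6 were lower (9.66% and 25.1%), with a median of 0.84. *Eef1a1*, the main elongation factor gene, was at 6141 and 7024 CPM in B cell-like cells (1.14) and at 1427 and 886 CPM in neutrophil-like cells (0.62). *Tpt1*, which has a TOP start, was between 0.86 in neutrophil-like and 1.15 in erythroid-like cells. The medians of this list were on the same side of 1 as the members' medians in these 3 classes.

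Ribosome biogenesis genes had a lower median than the members in these classes and in GMP-like cells. Of 32 such genes, none was higher and 6 were lower in B cell-like cells (all genes 4.53% and 13.4%), with a median ratio of 0.89 beside 1.10 for the members and 0.93 for all genes. In GMP-like cells none of 32 was higher and 1 was lower (6.16% and 10.4%), with a median of 1.02 beside 1.08 and 0.97. Of 19 with enough UMIs in monocyte-like cells, none was higher and 8 were lower (10.4% and 21.7%), with a median of 0.84 beside 1.14 and 0.93. *Ncl*, which encodes the nucleolar protein nucleolin, was at 1044 and 808 CPM in B cell-like cells (0.77), and *Npm1*, which encodes nucleophosmin, at 1826 and 1823 CPM (1.0). In neutrophil-like cells 14 of 20 biogenesis genes were lower and none higher (9.66% of all genes were higher and 25.1% lower), with a median of 0.67 beside 0.82 for the members. The part of the cluster mix in these class values was not tested. The list made up 0.666% of WT UMIs in B cell-like and 0.108% in neutrophil-like cells. In the highest against the lowest globin quartile, 31 of 32 were lower by at least 2-fold in the WT, with a median ratio of 0.12, and 30 of 31 in the Cko, with 0.08.

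Mitochondrial ribosomal proteins are encoded by a separate set of nuclear genes. Of 73 such genes, none was higher and 3 were lower in B cell-like cells (all genes 4.53% and 13.4%), with a median of 0.905 beside 1.10 for the cytoplasmic members. In erythroid-like cells 3 were higher and 20 lower (11.3% and 23.9%), with a median of 0.84 beside 1.02. In neutrophil-like cells 1 of 71 was higher and 23 were lower (9.66% and 25.1%), and the medians of the mitochondrial and cytoplasmic sets were close, at 0.84 and 0.82. Their share of WT UMIs was 1.03% in GMP-like and 0.421% in neutrophil-like cells, a narrower range than that of the cytoplasmic members. In the highest globin quartile of the WT 68 of 73 were lower by at least 2-fold.

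Targets of p53 were listed because free Rpl5 and Rpl11 bind Mdm2 when ribosome assembly is disturbed, which stabilises p53. Of 9 such genes, the WT listed 4, the Cko 8 and both libraries 4. *Cdkn1a*, which encodes the cell cycle inhibitor p21, had 70 UMIs in 3386 WT erythroid-like cells (2.14 CPM) and 669 UMIs in 542 Cko cells (101 CPM), a ratio of 47.2 (36.9 to 61.3). In the early erythroid-like cluster 3 it had 10 UMIs in the WT (0.862 CPM) and 306 in the Cko (110 CPM), and in cluster 2 it had 27 and 85 UMIs (3.04 and 96.7 CPM). In clusters 12, 1 and 8 it had 6, 26 and 1 UMIs in the WT and 86, 136 and 23 in the Cko, although the Cko clusters held fewer cells (51, 109 and 45 against 322, 724 and 428). Cluster 6 had none in 451 WT cells and 33 in 136 Cko cells, of which 18 came from a single cell, and cluster 19 had none in 112 WT and 27 Cko cells. The Cko value was thus higher in 6 of the 7 erythroid-like clusters. In the other large classes the ratio was smaller, as *Cdkn1a* was at 5.45 and 16.9 CPM in GMP-like cells (ratio 3.11), 26.4 and 56.9 in monocyte-like cells (2.16), 6.91 and 12.4 in neutrophil-like cells (1.79) and 19.7 and 12.8 in B cell-like cells (0.65). The smaller classes were mixed. *Cdkn1a* had 0 and 12 UMIs in dendritic cell-like, 0 and 3 in T/NK-like and 5 and 14 in macrophage-like cells (11.8 and 302 CPM). In cluster 17 it had 5 and 11 UMIs (7.68 and 42.9 CPM). It was nearly level in cluster 15 (17.4 and 18.3 CPM). The Cko value was lower in stromal-like (170 and 103 CPM) and in basophil and eosinophil-like cells (32.4 and 26.5 CPM).

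The other p53 targets listed in both libraries had ratios nearer to 1 in erythroid-like cells. *Ccng1*, cyclin G1, was at 23.5 and 48.4 CPM (2.06, 1.80 to 2.35), and *Bax*, which promotes cell death, at 133 and 188 CPM (1.42, 1.33 to 1.51). Cluster 3 held most of the Cko UMIs of both, with 276 of 321 for *Ccng1* (45.7 and 98.9 CPM) and 990 of 1248 for *Bax* (219.7 and 355 CPM). *Bax* was not higher in every erythroid-like cluster, as it was at 147 and 130 CPM in cluster 2, 35.2 and 24.6 CPM in cluster 8 and 11.9 and 10.5 CPM in cluster 19. *Mdm2* itself was at 16.8 and 14.8 CPM (0.88, 0.70 to 1.09), and the member *Rps27l*, also a p53 target, was at 0.95. *Rpl5* was at 1271 and 1244 CPM (0.98) and *Rpl11* at 2858 and 2981 CPM (1.04) in the same cells, close to the median member. The targets *Phlda3*, *Zmat3*, *Sesn2* and *Trp53inp1* were listed in the Cko only, so no ratio can be given. They had 194, 101, 100 and 45 UMIs in the Cko erythroid-like cells, and in cluster 3 *Phlda3* was found in 57.4% and *Zmat3* in 45.2% of the cells.

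The genes most like the summed members across the 12 classes were ranked over 2284 genes with a mean of at least 50 CPM, by Pearson correlation of log2 levels in the WT. *Gnb2l1* came first (r 0.99 in the WT and 0.97 in the Cko), followed by *Eef1b2* (0.98 and 0.98), *Gm2000*, *Snrpd2*, *Rpl23a-ps3*, *Nop10*, *Gm7536*, *Gtf3a*, *Cdk4* and *G3bp1* (0.96 and 0.69). *Gm2000* and *Rpl23a-ps3* have 3′ ends near-identical to those of the members *Rpl35* and *Rpl23a*, so their reads may be shared with members. The points of each correlation are classes of the same 2 libraries, share their depth, and all enter the same totals, so the correlations are descriptions.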

How the data were processed

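BMC libraries of 1 WT and 1 Cko mouse were made by the authors with the 10x Chromium Single Cell 3′ kit, and reads were counted with Cell Ranger, for which the submitters' processing notes name GRCm38 but no version. The authors deposited whole-number UMI counts per gene and barcode, without normalization. The members and lists were chosen with earlier results of these data known.

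Barcodes with at least 200 genes were kept. Every listed gene reached 4 UMIs in some cell, so unlisted genes were not taken as 0. Scrublet in scanpy 1.11.5 called 122 WT and 38 Cko doublets, which were kept. Both libraries were clustered with Seurat 5.3.0 in R 4.3.3 (2000 variable genes, 20 components, resolution 0.8) without members and the *Stfa* family. Names needed at least 3 markers and no other type leading, and since they were rebuilt they may differ from the authors' clusters. A rule added after seeing the data left cluster 17 unnamed.

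Shares are sums of UMIs with exact binomial intervals, and ratios of CPM have exact conditional 95% intervals. Some genes of the naming rule and lists are not reported here by name. Genes needed at least 100 UMIs, and the limits were a ratio of 5 to 4 between libraries and 2-fold between stages. Named members were those with the widest class range, highest and lowest ratios, most and fewest UMIs, paralogs and stalk genes. *Rpl3*, *Rps9* in the Cko bins, *Rpl5*, *Rpl11*, *Cdkn1a*, *Ccng1*, *Bax*, *Mdm2*, *Phlda3*, *Zmat3*, *Sesn2*, *Trp53inp1*, the -ps genes and the 4 members with opposite directions were named after their values were seen. On simulated counts 100% of the 199 changed genes with enough UMIs in B cell-like cells had the right sign, and 95.0% of intervals over 4821 genes held the true ratio. In neutrophil-like cells 99.5% of 193 had the right sign, and 95.6% of intervals held the ratio. These counts were drawn with counting error only, so they check the calculation of the intervals and not differences between cells or mice. Scripts ran in Python 3.11.15 with pandas 2.3.3, scipy 1.17.1, matplotlib 3.10.9 and numpy 2.4.6. Alternatives changed denominators, clustering, cell filters and limits.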

Additional observations from a re-analysis of the deposited data

Results flagged for a closer look

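The ribosomal protein share went in opposite directions along the neutrophil maturation bins of the libraries. On the log2 scale the most mature bin differed from the least mature by 0.20 in the WT and by -0.44 in the Cko. The difference between the libraries was not tested, since each genotype was 1 library. Without clusters 20 and 21 both were below 0, at -0.27 and -0.79.

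*Rpl22l1* had a Cko/WT ratio of 0.64 in erythroid-like and 1.12 in B cell-like cells, with intervals on opposite sides of 1. This difference between classes was not tested. Of the members, 4 (*Rpl10a*, *Rpl18*, *Rps18* and *Rps7*) passed the fold limit of 5 to 4 upward in at least 1 class and downward in another, and for all 4 the class with the lower value was neutrophil-like only. Over the 16 clusters with at least 50 cells in each library, none of the 4 passed the limit downward. Their lowest cluster ratios were 0.936, 0.904, 0.955 and 0.838 in that order.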

How the results depend on the processing

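Values are log2 ratios unless they are counts of members. The WT maturation difference of neutrophil-like cells (0.20) turned to -0.042 with at least 500 genes per cell and at resolution 1.2, to -0.033 without called doublets, to -0.027 without hemoglobin-bearing cells, and to -0.27 without clusters 20 and 21, and it was 0.83 with each library clustered on its own, 0.51 at resolution 0.4 and 0.014 as a mean over cells. The Cko difference (-0.44) was 0.079 at resolution 0.4 and -0.29 (own clustering), -0.32 (no globin, granule and S100 genes in the denominator), -0.43 (no near-identical copies), -0.53 (mean over cells), -0.65 (resolution 1.2 and no hemoglobin-bearing cells), -0.67 (no doublets), -0.68 (500 genes) and -0.79 (no clusters 20 and 21).

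The neutrophil-like Cko/WT ratio (-0.24) was 0.20 with clusters weighted equally, -0.89 with own clustering, -0.37 and -0.14 at resolutions 0.4 and 1.2, -0.20 without globin, granule and S100 genes, -0.23 as a mean over cells, -0.28 for members without copies, -0.16 without doublets and with 500 genes, and -0.15 without hemoglobin-bearing cells and without clusters 20 and 21. The B cell-like ratio (0.16) was 0.25 with own clustering, 0.23 at resolution 1.2, 0.18 with clusters weighted equally, 0.16 without doublets and without paralogs, 0.15 with genes listed in both libraries and without hemoglobin-bearing cells, and 0.14 without globin, granule and S100 genes and without copies. The GMP-like ratio (0.11) was -0.028 with own clustering, and the erythroid-like ratio (0.05) was -0.014 as a mean over cells. The monocyte-like and dendritic cell-like ratios stayed above 0 in all alternatives run.

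B cell-like over neutrophil-like (1.74 in the WT and 2.14 in the Cko) was 1.75 and 2.15 (genes listed in both), 0.87 and 1.22 (no globin, granule and S100 genes), 1.51 and 2.66 (own clustering), 1.98 and 2.50 (resolution 0.4), 1.80 and 2.18 (resolution 1.2), 1.90 and 2.22 (no doublets), 1.90 and 2.21 (500 genes), 1.96 and 2.35 (mean over cells), 1.90 and 2.20 (no hemoglobin-bearing cells), 1.95 and 2.25 (no clusters 20 and 21) and 1.78 and 2.20 (no copies). The globin difference (-2.47 in the WT and -1.88 in the Cko) was -2.39 and -1.98 (mean over cells), -2.48 and -1.83 (no copies), and in the Cko -1.85 (own clustering) and -1.76 (500 genes).

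Members higher in B cell-like cells (7) were 17 with own clustering, 1 at a limit of 1.5-fold and 19 with ratios divided by the median of all genes. Members lower in neutrophil-like cells (32) were 80 with own clustering, 19 without doublets, 18 without hemoglobin-bearing cells and without clusters 20 and 21, 6 at 1.5-fold and 14 after the division by the median. Members higher in monocyte-like cells (21) were 4 at 1.5-fold, 38 after the division by the median, and 14 to 21 in the other alternatives. The cause of these changes was not tested. The alternatives on clusters 20 and 21, copies and equal weights were chosen after seeing the data.

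No paired analysis was possible because each genotype had 1 library. Small classes rest on few cells, such as 9 Cko macrophage-like cells, and intervals cover counting error only.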
